A study of Mus musculus with 8 samples.

Results

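The genes described here are the voltage-gated ion channel genes and their close relatives measured in the mouse dentate gyrus, the hippocampal region in which granule neurons are added throughout life. Members were chosen by symbol from the array annotation: every gene whose symbol begins with Kcn, the 4 hyperpolarization-activated channels of the Hcn family, the sodium channel genes written Scn followed by a number and a or b, and the calcium channel subunit genes that begin with Cacna, Cacnb or Cacng. The noncoding RNA Kcnq1ot1 was left out. The rule gave 141 genes with 288 probes, of the 26894 gene symbols and 56605 probes on the array, and used no measured value. It also takes in potassium channels without a voltage sensor, transmembrane AMPA receptor regulatory proteins of the Cacng family and 4 other transcripts named after a channel, which were kept apart as classes of their own.

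The mice were male C57BL/6 animals, 8 to 9 weeks old. RNA of their dentate gyri was hybridized to 8 single-color Agilent arrays, 2 in each of 4 groups. The Derlin-1_control group was homozygous for the floxed Derl1 allele (Derlin-1flox/flox), and the Derlin-2_control group for the floxed Derl2 allele (Derlin-2flox/flox). The Derlin-1_KO and Derlin-2_KO groups came from crosses of Derl1flox/flox or Derl2flox/flox mice with mice carrying Cre recombinase under the nestin promoter, which is active in the neural lineage of the whole central nervous system. Cre was present in the KO groups alone, so the presence of Cre and the loss of the gene cannot be told apart, and cells outside the neural lineage, such as microglia and endothelium, are not expected to lose the gene. Both Derlins sit in the membrane of the endoplasmic reticulum and help to dispose of misfolded proteins. The question put to the data here was whether channel transcripts differed between KO and control in either line.

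Action potentials rest on these channels. Sodium channels of the Nav family open first and depolarize the membrane, potassium channels of the Kv family and the calcium-activated potassium channels repolarize it, and calcium channels of the Cav family couple the depolarization to transmitter release and gene expression. Inward rectifiers and K2P leak channels hold the resting potential, and HCN channels pass a depolarizing current upon hyperpolarization. Most channels consist of a pore-forming alpha subunit and auxiliary subunits that set its gating and its transport to the membrane. Granule neurons of the dentate gyrus are known for a very negative resting potential and sparse firing.

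Between 67.6% and 70.8% of the probes on an array were well above background, and the signal at the 75th percentile ran from 956 to 1437. Each line was hybridized on a slide of its own, with KO and control on the same slide, so slide and line cannot be told apart. Pearson's r between arrays across the channel genes was 0.992 to 0.997 for arrays of one group. KO arrays and their own controls reached 0.992 to 0.996 and arrays of different lines 0.975 to 0.992, where the genes are not independent replicates. The Derl2 probe read 11.36 and 11.22 on the log2 scale in Derlin-2 controls and 10.63 and 10.65 in Derlin-2 KO, a difference of -0.65 (SE 0.0969, adjusted p = 0.2572 in limma). The Derl1 probe read 10.86 and 10.76 in Derlin-1 controls against 10.56 and 10.65 in Derlin-1 KO, a difference of -0.20 (SE 0.103, adjusted p = 0.9999), so only the labels define the Derlin-1 groups. Whether the probes lie inside the deleted part was not checked. The labels do not say that the arrays of a group came from separate mice, so the p-values measure the spread between these arrays.

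Most channel genes gave a signal in this tissue. In at least 1 group, both arrays read a probe well above background for 128 of the 141 genes (90.8%), against 19922 of 26894 gene symbols on the whole array (74.1%). Of these 128 genes, 123 (96.1%) were above background on all 8 arrays, against 91.6% of all genes with such a probe. The brightest probe of each gene stands for it below. In the 4 control arrays, 88 of the 128 (68.8%) lay above the median of all probes kept and 20 (15.6%) among the brightest 10%. The brightest probes of all 19922 genes, chosen the same way, lay above that median for 63.5% and in the brightest 10% for 14.6%. The brightness of a probe also depends on its own sequence, so this is a position among probes and not a number of transcripts. The brightest 10% held the sodium channel alpha subunit Scn2a and beta subunits Scn2b and Scn3b, the pacemaker channel Hcn2, the A-type channel Kcnd2, the large-conductance calcium-activated channel Kcnma1 with its neuronal subunit Kcnmb4, and the glial inward rectifier Kcnj10.

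**Figure D1:**
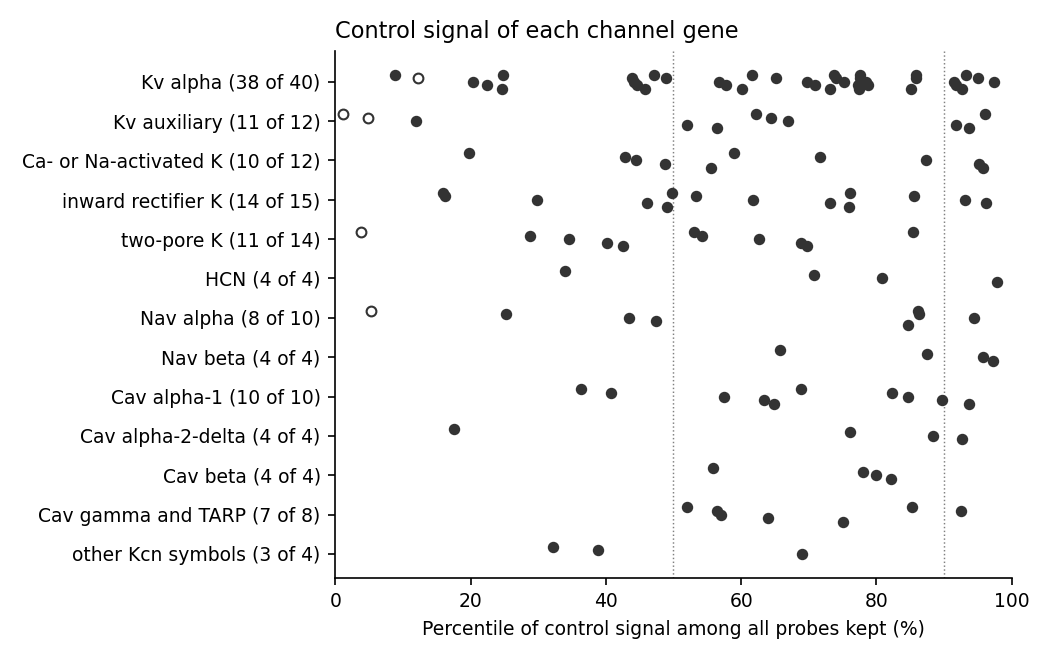
Position of the control signal of each of the 128 channel genes with a probe kept, by class, as the percentile among all probes kept (x axis, %); counts beside the class names are genes with a probe kept of genes in the class. Filled points are genes above background on all 8 arrays (123) and open points the other 5; dotted lines mark the median and the start of the brightest 10%, which held 20 channel genes.

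The 13 genes with no probe above background on both arrays of any group were Kcna10, the ERG-family gene Kcnh7, Kcne4, the renal channel Kcnj1, the K2P channels Kcnk5, Kcnk9 and Kcnk18, the beta subunits Kcnmb1 and Kcnmb3 of the calcium-activated channel, the transcript Kcnmb4os1, the sodium channels Scn7a and Scn9a, and the skeletal muscle subunit Cacng1. For 8 of them, no probe was above background on any array. Among the 5 genes measured on a part of the arrays, Kcne3 was above background on both Derlin-1 control arrays and on none of the other 6. The gene was kept through that one group, so its own difference is not reported. Scn10a, a channel of sensory neurons, was not well above background on any Derlin-1 array. Both genes were tested with the rest and are part of the counts over the 128 genes and of the class values below.

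No channel gene passed the threshold in either line. Comparing Derlin-1 KO with control, 0 of 128 channel genes had an adjusted p under 0.05 in limma, where 0% of all 19900 genes tested did. For Derlin-2 it was 0 of 128, against 9 of 19812 genes (0.0454%). For the difference between the lines it was again 0 of 128, against 1 of 19810 genes (0.00505%). At an unadjusted p under 0.05, 11 channel genes (8.59%) were counted for Derlin-1 beside 4.23% of all genes, 5 (3.91%) for Derlin-2 beside 4.64%, and 10 (7.81%) for the difference beside 4.5%. The Derlin-1 count includes Kcne3. Limited to the 123 channel genes above background on all 8 arrays, it was 9 for Derlin-1 and 5 for Derlin-2. Among all genes so limited, 704 of 18236 and 672 of 18163 were counted. With an array left out, all of these counts over the 128 genes moved, up or down depending on the array. Such a fit leaves 1 array in a group, and the share over all genes was not computed for it, so no count is given.

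Both KO arrays lay below both control arrays for 29 of 128 channel genes in the Derlin-1 line (22.7%), beside 17.9% of all genes, and above them for 14 (10.9%), beside 16.2%. For Derlin-2 they lay below for 14 of 127 genes (11%), beside 14.6%, and above for 19 (15%), beside 17.9%. A fitted difference of at least 1.5-fold was found upward for 3 genes (2.34%) in Derlin-1 KO and 4 (3.12%) in Derlin-2 KO, beside 2.11% and 1.99% of all genes. Downward it was found for 4 (3.12%) and 1 (0.781%), beside 1.97% and 2.6%. The median log2 difference over the channel genes was -0.0387 in the Derlin-1 line, where the median over all genes was -0.0203. It was -0.0108 in the Derlin-2 line beside 0.00784 for all genes. The SD of the channel median between arrays of a group was 0.0377. Scaled to the 75th percentile instead, the channel medians were -0.00334 and 0.0204, beside 0.0131 and 0.0214 for all genes. Without Derlin-1_control replicate 1, the Derlin-1 median was 0.0162, and without Derlin-2_control replicate 1 the Derlin-2 median was 0.0299. In whole tissue, fewer cells of a type and less RNA per cell cannot be told apart.

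**Figure D2:**
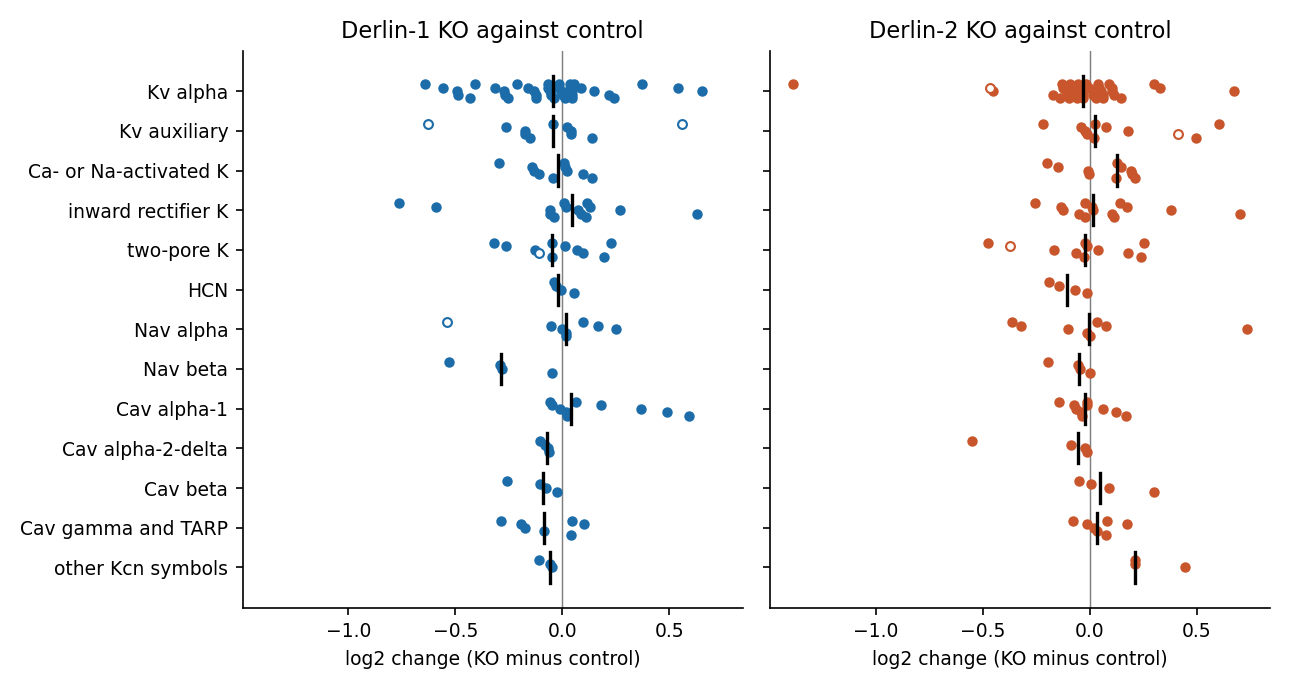
Log2 difference between KO and control (x axis) of each channel gene by class, for Derlin-1 (left, blue) and Derlin-2 (right, orange). Filled points are genes above background on all 4 arrays of the line, open points the others, and black bars the class median; most genes lie near 0 in both lines, with Kcnj5 lowest (-0.76) and Kcna5 highest (0.65) for Derlin-1.

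Kcnj8 had the lowest unadjusted p of the channel genes in the Derlin-1 line. It encodes Kir6.1, the pore of an ATP-sensitive potassium channel of pericytes and smooth muscle. Its log2 signal was 9.34 and 9.25 in Derlin-1 controls against 8.77 and 8.65 in Derlin-1 KO. Both KO arrays lay below both controls, with a difference of -0.59 (SE 0.110, unadjusted p = 0.00163, adjusted p = 0.9999 in limma). In the other line Kcnj8 read 9.38 and 9.22 in controls against 9.47 and 9.41 in KO, which is 0.14 higher (SE 0.110, unadjusted p = 0.246). Abcc9, which encodes the sulfonylurea receptor SUR2 that pairs with Kir6.1, read 7.44 and 7.65 in Derlin-1 controls against 6.76 and 6.80 in KO, a difference of -0.76 (SE 0.180). Its Derlin-2 values were 8.36 and 7.90 in controls against 7.29 and 7.49 in KO, a difference of -0.74 (SE 0.180). The adjusted p of Abcc9 was 0.9999 and 0.5821 in limma. Over the whole list of 10 endothelial and mural markers, to which Abcc9 belongs, 1 had an unadjusted p under 0.05 in limma, Abcc9 itself, beside 4.23% of all genes. None (0) passed the threshold. Of the 10, 4 were higher and 6 lower in Derlin-1 KO, with a median difference of -0.0285. The level summed over that list ran from 14.16 to 14.22 on the log2 scale in Derlin-1 controls and from 14.11 to 14.16 in KO, and its part in the result was not tested. Of the same list, 6 were higher and 4 lower in Derlin-2 KO, with a median of 0.0545. There 2 of the 10 had an unadjusted p under 0.05, Abcc9 and the pericyte marker Vtn, beside 4.64% of all genes, and 0 passed the threshold.

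In the Derlin-1 line, 5 genes had the largest upward differences among genes above background on all 4 arrays of the line whose KO and control arrays did not overlap. The delayed rectifier Kcna5 read 5.66 and 5.37 in controls against 6.12 and 6.22 in KO, a difference of 0.65 (SE 0.277). Its control signal lay in the lower 22.4% of probes kept. The inward rectifier Kcnj13 of epithelia and choroid plexus read 6.12 and 6.35 in controls against 6.88 and 6.84 in KO, a difference of 0.63 (SE 0.207). For both genes the 2 KO arrays lay close together and above both controls. The R-type calcium channel Cacna1e read 10.65 and 10.18 against 11.29 and 10.73, a difference of 0.59 (SE 0.413). The M-current subunit Kcnq5 read 12.26 and 12.16 against 12.85 and 12.66, a difference of 0.54 (SE 0.222). The silent subunit Kcnf1, which forms no channel by itself, read 9.51 and 9.21 against 9.58 and 9.87, a difference of 0.37 (SE 0.247). One Cacna1e KO array and one Kcnf1 KO array lay very close to the nearest control. Among choroid plexus and ependyma markers, 6 of 9 measured were higher and 3 lower in Derlin-1 KO (median 0.272). Their summed level was 10.88 and 11.11 in controls against 10.99 and 11.23 in KO. The transthyretin gene Ttr, a choroid plexus marker, read 7.64 and 8.85 in controls against 9.03 and 9.30 in KO, a difference of 0.92 (SE 0.878). The 3 lower markers were Sostdc1 (-0.271, SE 0.159), Kl (-0.258, SE 0.141) and Prlr (-0.138, SE 0.155). For Kl both KO arrays lay below both controls, as for 17.9% of all genes. The part of these cells in the Kcnj13 value was not tested.

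Under the same limits, the 5 largest downward differences in the Derlin-1 line included Kcnj8. The G-protein-gated channel subunit Kcnj5 read 5.40 and 5.67 in controls against 4.86 and 4.69 in KO, a difference of -0.76 (SE 0.309). The silent subunit Kcng4 read 5.02 and 5.10 against 4.22 and 4.62, a difference of -0.64 (SE 0.240). The Kv7.1 gene Kcnq1 read 6.24 and 7.04 against 5.93 and 6.23, a difference of -0.56 (SE 0.331), with one control nearly level with one KO array. Its 4 other probes above background on all arrays differed by between -0.25 and 0.70 in this line. Kcnj5 and Kcng4 were dim on every array, with control signals in the lower 16.2% and 12.2% of probes kept. The sodium channel beta subunit Scn4b read 9.82 and 9.84 in controls against 9.30 and 9.30 in KO, a difference of -0.53 (SE 0.124, unadjusted p = 0.00515). Replicates of Scn4b lay closer together than those of any other gene in this group of 5 in the Derlin-1 line. The adjusted p of all 10 genes was 0.9999 in limma.

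**Figure D3:**
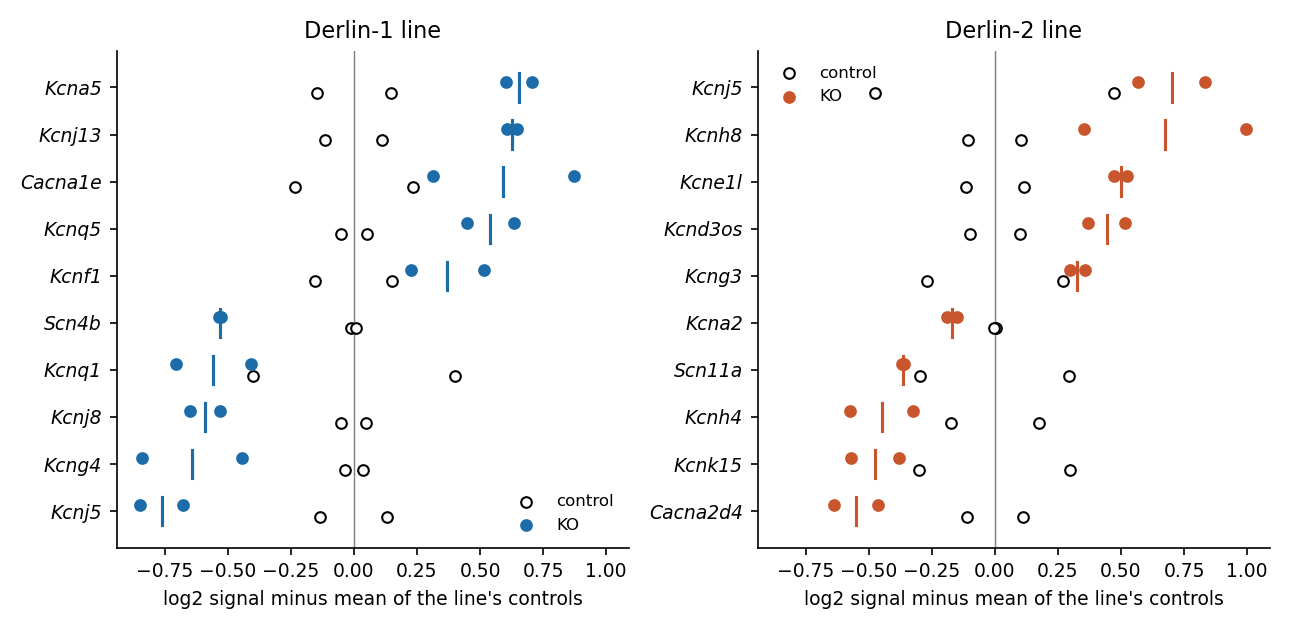
Log2 signal of each array less the mean of the line's 2 controls (x axis) for the 10 channel genes with the largest differences among non-overlapping genes above background on all 4 arrays of the line, for Derlin-1 (left) and Derlin-2 (right). Open points are control arrays, filled points KO arrays and vertical bars KO means; Scn4b lies at -0.53 in the Derlin-1 line with nearly identical replicates.

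Among genes above background on all 4 arrays of the line and with no overlap of KO and control, the largest upward difference in Derlin-2 KO was that of Kcnj5, with 4.59 and 5.54 in controls against 5.63 and 5.90 in KO. This is a difference of 0.70 (SE 0.309), opposite in sign to the Derlin-1 line, and one control lay close to the KO arrays. Kcnh8, a member of the ether-a-go-go family, read 4.47 and 4.68 in controls against 4.93 and 5.57 in KO, a difference of 0.68 (SE 0.216). Kcnh8 was dim, with a mean of 4.73 over the arrays. Kcne1l, also called Kcne5, which encodes a small auxiliary subunit of Kv channels, read 9.64 and 9.42 against 10.06 and 10.00. Its difference of 0.50 (SE 0.118) had the lowest unadjusted p of the channel genes in this line, 0.00550, and an adjusted p of 0.569 in limma. The antisense transcript Kcnd3os read 7.10 and 6.90 against 7.37 and 7.52, a difference of 0.44 (SE 0.159). The silent subunit Kcng3 read 4.94 and 5.48 against 5.56 and 5.50, a difference of 0.33 (SE 0.207), with a control signal in the lower 20.3% of probes kept.

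Downward in the Derlin-2 line, under the same limits, the calcium channel subunit gene Cacna2d4, best known from the retina, read 5.25 and 5.47 in controls against 4.89 and 4.72 in KO. The difference was -0.55 (SE 0.144, unadjusted p = 0.00860, adjusted p = 0.622 in limma). The gene was dim, with a control signal in the lower 17.5% of probes kept. The second Cacna2d4 probe differed the other way, by 0.34 (SE 0.481). The K2P gene Kcnk15 differed by -0.47 (SE 0.368), the ether-a-go-go family gene Kcnh4 by -0.45 (SE 0.345), the sodium channel gene Scn11a of sensory neurons by -0.36 (SE 0.207) and the delayed rectifier Kcna2 by -0.17 (SE 0.128). The second Kcnh4 probe, nearly as bright (mean log2 signal 10.474 beside 10.567), differed by -0.0071 (SE 0.17) in this line. Kcna2 read 9.27 and 9.27 in controls against 9.08 and 9.12 in KO, with little spread. Outside these limits, Kcnq1 had a fitted difference of -1.39 (SE 0.405, unadjusted p = 0.0184, adjusted p = 0.7688), from 8.80 and 8.26 in controls and 7.14 on the one KO array whose spot carried no outlier flag. The other KO spot was dropped, so the 2 KO arrays could not be placed against the controls. Of the 4 other probes, 3 differed here by between -0.56 and -0.52 and the fourth by 0.42. Apart from Cacna2d4 and Kcne1l, the genes named here for the Derlin-2 line, 9 in number, had adjusted p-values of 0.7688 to 0.9992 in limma.

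The difference between the Derlin-1 and Derlin-2 effects was tested directly. Kcnj8 had the lowest unadjusted p, with an effect in the Derlin-1 line 0.73 below that in the Derlin-2 line (SE 0.155, unadjusted p = 0.00318, adjusted p = 0.5822 in limma). For Kcnj5 the difference was -1.46 (SE 0.437) and for Kcnh8 -1.08 (SE 0.305), with adjusted p-values of 0.7531 and 0.7336. Kcnh8, a dim gene, read 4.69 and 4.81 in Derlin-1 controls against 4.34 and 4.34 in Derlin-1 KO. In the other direction, 2 genes were measured on all 8 arrays with no overlap of KO and control in either line. The ERG-family gene Kcnh6 differed by 0.24 in Derlin-1 KO and by -0.13 in Derlin-2 KO, a difference of 0.37 (SE 0.141, adjusted p = 0.8415). The K2P acid-sensitive channel gene Kcnk3 differed by 0.067 and -0.17, a difference of 0.23 (SE 0.131, adjusted p = 0.8858). The lines have their own controls, so these values share no array.

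The upstream sequences of 4 of these genes are printed to show the regulatory DNA of the members with the lowest p-values in each line and of Kcnj13, the named gene that holds an element of the endoplasmic reticulum stress response. They are the 250 bases before the annotated start in RefSeq (build GRCm38.p6), read 5′ to 3′ on the strand of the gene: Kcnj8 at chr6:142571615-142571864 on the minus strand, Scn4b at chr9:45138374-45138623 on the plus strand, Kcne1l at chrX:142306199-142306448 on the minus strand and Kcnj13 at chr1:87394730-87394979 on the minus strand. Capitals mark a match to a motif searched.
Kcnj8: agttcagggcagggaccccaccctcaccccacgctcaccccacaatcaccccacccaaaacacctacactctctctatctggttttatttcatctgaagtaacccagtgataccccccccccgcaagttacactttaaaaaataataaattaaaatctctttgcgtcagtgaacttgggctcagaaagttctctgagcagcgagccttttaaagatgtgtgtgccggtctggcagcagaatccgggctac
Scn4b: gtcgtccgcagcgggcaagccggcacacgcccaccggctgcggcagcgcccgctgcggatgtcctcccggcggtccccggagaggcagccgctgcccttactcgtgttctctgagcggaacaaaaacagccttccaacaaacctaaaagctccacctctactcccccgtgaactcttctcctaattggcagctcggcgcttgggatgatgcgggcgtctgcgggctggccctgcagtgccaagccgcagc
Kcne1l: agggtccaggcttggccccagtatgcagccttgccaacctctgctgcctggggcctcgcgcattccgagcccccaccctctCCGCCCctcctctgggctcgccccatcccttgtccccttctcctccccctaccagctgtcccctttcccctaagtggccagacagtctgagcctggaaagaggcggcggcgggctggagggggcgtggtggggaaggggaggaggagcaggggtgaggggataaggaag
Kcnj13: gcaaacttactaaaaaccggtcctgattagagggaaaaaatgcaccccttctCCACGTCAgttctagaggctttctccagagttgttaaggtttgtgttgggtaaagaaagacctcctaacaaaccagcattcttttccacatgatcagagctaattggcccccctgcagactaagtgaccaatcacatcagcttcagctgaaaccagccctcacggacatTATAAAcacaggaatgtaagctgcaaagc
An entry was found for 103 of the 141 genes, with 139 starts in all. Searched on both strands were TGACGTGG, which ATF6 and XBP1 recognize, the endoplasmic reticulum stress response element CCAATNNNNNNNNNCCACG, the cAMP response element TGACGTCA, the TATA box TATAAA and the GC box GGGCGG. TGACGTGG was found upstream of 3 of 139 channel gene starts (2.16%), beside 0.563% of all 32851 starts, in Kcna6, Kcnab2 and Kcnj13. In Kcnj13 the match is on the opposite strand and TATAAA follows it; these are the 2 runs in capitals. The stress response element was in 0 of 139 channel gene starts and 0.113% of all, and the cAMP element in 0 of 139 and 1.55% of all. TATAAA was in 5 (3.6%) beside 12.4%, and GGGCGG in 60 (43.2%) beside 32.7%, among them Kcne1l, where it is the run in capitals. The median share of G and C was 58.4% upstream of channel genes and 52.4% upstream of all genes. None of the 5 motifs matched in the Kcnj8 and Scn4b windows. A match is a description of the letters and does not show binding.

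Among sodium channels, the pore-forming genes had medians near 0 in both lines. Of the 8 Nav alpha genes measured, 5 were higher and 3 lower in Derlin-1 KO, with a median of 0.016. In Derlin-2 KO, 4 were higher and 4 lower, with a median of -0.00435 that turned positive under a 75th percentile scaling, the deposited values, the mean over the probes of a gene or outlier spots kept. This median was also positive without Derlin-2_control replicate 1. Scn1a, the Nav1.1 channel known mainly from interneurons, read 11.86 and 11.74 in Derlin-1 controls against 11.83 and 11.80 in KO, a difference of 0.016 (SE 0.0988), and differed by 0.0033 in the Derlin-2 line. Scn8a, the Nav1.6 channel of the axon initial segment, differed by 0.097 (SE 0.153) and -0.012 (SE 0.153). These 4 differences were smaller than their standard errors.

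The Nav beta genes encode single-pass subunits that shape gating and cell adhesion. Scn2b, Scn3b and Scn4b were singled out after their values were seen. Scn3b read 15.30 and 15.05 in Derlin-1 controls against 14.90 and 14.87 in KO, a difference of -0.29 (SE 0.113, unadjusted p = 0.0418). Scn2b read 14.63 and 14.38 against 14.44 and 14.48, a difference of -0.05 (SE 0.173), which was 0.00692 with scaling to the 75th percentile. For Scn3b and Scn4b both KO arrays lay below both controls, and for Scn2b they overlapped. The second probe of Scn3b differed by -0.38 (SE 0.191). Between the Derlin-2 groups, Scn2b differed by -0.19, Scn3b by -0.044 and Scn4b by 0.0019. The difference between the lines was -0.53 for Scn4b (SE 0.176, unadjusted p = 0.0229, adjusted p = 0.7904) and -0.25 for Scn3b (SE 0.160). All adjusted p-values of these genes in the 2 lines were 0.9992 or 0.9999 in limma. The first Derlin-1 control array read higher than the second for Scn2b and Scn3b, and without that array Scn3b differed by -0.17.

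**Figure D4:**
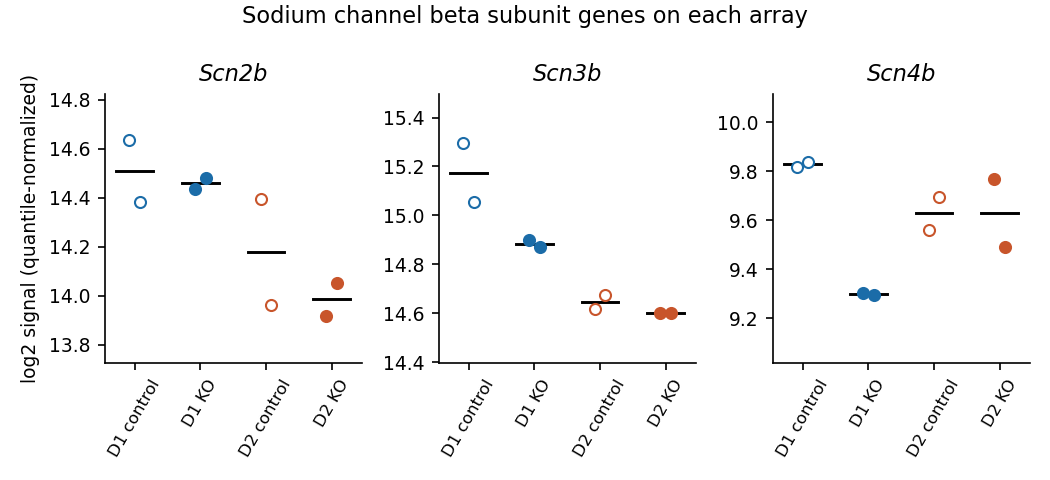
Quantile-normalized log2 signal (y axis, one scale length in the 3 panels) of Scn2b, Scn3b and Scn4b on each of the 8 arrays, in Derlin-1 (D1) and Derlin-2 (D2) control (open) and KO (filled) mice; horizontal bars are means of 2 arrays. In the Derlin-1 line the KO arrays lie below both controls for Scn3b and Scn4b and between them for Scn2b.

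Calcium channel genes were measured for all 10 Cav alpha-1 subunits. Of these, 7 were higher and 3 lower in Derlin-1 KO (median 0.0421), and 3 higher and 7 lower in Derlin-2 KO (median -0.0235). The Derlin-1 median changed sign with the mean over the probes of a gene, and the Derlin-2 median without Derlin-2_control replicate 1 or Derlin-2_KO replicate 2. Cacna1a, the P/Q-type channel of presynaptic terminals, read 12.88 and 12.86 in Derlin-1 controls against 12.93 and 12.84 in KO, a difference of 0.019 (SE 0.105), and differed by -0.013 in the Derlin-2 line. The T-type channel Cacna1h, which supports burst firing, differed by -0.056 (SE 0.156) and -0.073 (SE 0.156). The other Cacna1e probes, 3 in number, differed by between -0.20 and 0.084 in the Derlin-1 line, against 0.59 for the brightest.

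The auxiliary calcium channel subunits had mostly lower means in Derlin-1 KO. The alpha-2-delta subunits, which bring channels to the surface, had lower means on the brightest probe in 4 of 4 cases in both lines. Their medians were -0.0743 and -0.0526. Of all genes, 11137 of 19900 were lower in Derlin-1 KO and 9447 of 19812 in Derlin-2 KO. With scaling to the 75th percentile, Cacna2d1 turned to 0.0202 in the Derlin-2 line. Its other probes ran from -0.42 to 0.21 in the Derlin-1 line and from -0.089 to 0.24 in the Derlin-2 line. In these lines the second probe of Cacna2d2 differed by 0.28 and -0.67, and that of Cacna2d4 by -0.20 and 0.34. Cacna2d1, a binding site of gabapentin, read 13.61 and 13.41 in Derlin-1 controls against 13.46 and 13.40 in KO, a difference of -0.079 (SE 0.112), and differed by -0.02 in the Derlin-2 line. The 4 intracellular beta subunits had lower means on the brightest probe in Derlin-1 KO. They ran from -0.26 for Cacnb1 (SE 0.164) to -0.026 for Cacnb4 (SE 0.107). For 3 of them both KO arrays lay below both controls, beside 17.9% of all genes. Other Cacnb2 probes above background on all arrays differed by 0.35, 0.25 and -0.21 in the Derlin-1 line. The second Cacnb4 probe differed by -0.15 there. For Derlin-2 the brightest probes of the beta subunits ran from -0.047 for Cacnb2 to 0.30 for Cacnb1. The 7 Cacng genes measured, of which several assist AMPA receptors rather than calcium channels, ran from -0.29 for Cacng8 (SE 0.135) to 0.10 for Cacng7 (SE 0.128) in the Derlin-1 line. Derlin-2 values ran from -0.079 for Cacng5 (SE 0.156) to 0.18 for Cacng2 (SE 0.127). On the brightest probe, no auxiliary calcium channel gene apart from Cacna2d4 had an unadjusted p under 0.05 in either line. The second Cacng7 probe differed by -0.44 in the Derlin-2 line.

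The Kv alpha subunits, with 38 of 40 genes measured, had 15 genes higher and 23 lower in Derlin-1 KO (median -0.0454), and 16 higher and 22 lower in Derlin-2 KO (median -0.0296). Both KO arrays lay below both controls for 11 genes in the Derlin-1 line, where this held for 17.9% of all genes, and for 8 in the Derlin-2 line, where it held for 14.6%. They lay above both controls for 5 and 4 genes, beside 16.2% and 17.9% of all genes. Differences ran from -0.64 for Kcng4 to 0.65 for Kcna5 in the Derlin-1 line, and from -1.39 for Kcnq1 to 0.68 for Kcnh8 in the Derlin-2 line. The Shaker-type gene Kcna1 of axons read 14.19 and 14.22 in Derlin-1 controls against 14.12 and 14.18 in KO, a difference of -0.053 (SE 0.0933), and differed by 0.052 in the Derlin-2 line. The A-type subunit Kcna4 differed by 0.034 and 0.10 (SE 0.129 in each line). Kcnc1, the Kv3.1 channel of fast-spiking neurons, differed by -0.018 and -0.057 (SE 0.114). Kcnd2, the Kv4.2 channel of granule cell dendrites, read 13.46 and 13.04 in Derlin-1 controls against 13.25 and 13.01 in KO, a difference of -0.12 (SE 0.179), and differed by -0.06 in the Derlin-2 line.

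The M-current subunits Kcnq3 and Kcnq5, which hold neurons back from repetitive firing, differed in opposite directions in the Derlin-1 line. Kcnq3 read 7.79 and 7.82 in Derlin-1 controls against 7.20 and 7.44 in KO, a difference of -0.49 (SE 0.125, unadjusted p = 0.00757, adjusted p = 0.9999 in limma). Its second probe, not above background on every array, differed by 0.69 (SE 0.618). Kcnq5 had the opposite sign on its brightest probe, while its 3 other probes above background on all arrays differed by between -0.17 and 0.0075. Between the Derlin-2 groups, Kcnq3 differed by -0.03, and its arrays overlapped.

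Of the 11 Kv auxiliary genes measured, 5 were higher and 6 lower in Derlin-1 KO (median -0.0456, positive with scaling to the 75th percentile or without Derlin-1_KO replicate 1), and 7 were higher and 4 lower in Derlin-2 KO (median 0.0241). Of the 10 calcium- or sodium-activated potassium channel genes, 5 were higher and 5 lower in Derlin-1 KO (median -0.0189, positive without Derlin-1_control replicate 1), and 6 were higher and 4 lower in Derlin-2 KO (median 0.127). Over 20 alternatives this Derlin-2 median ran from 0.00083 to 0.141. Kcnma1 read 14.24 and 14.14 in Derlin-1 controls against 14.20 and 14.20 in KO, a difference of 0.013 (SE 0.0966), and differed by -0.0097 in the Derlin-2 line. The class ran from -0.30 for the beta subunit Kcnmb2 (SE 0.117, unadjusted p = 0.0430) to 0.14 for the intermediate-conductance channel Kcnn4 (SE 0.239) in the Derlin-1 line. The other Kcnmb2 probes, above background on all arrays, differed by 0.0103 (SE 0.15) and -0.16 (SE 0.136) in this line. For Derlin-2 the class ran from -0.20 for Kcnn4 (SE 0.239) to 0.21 for the small-conductance channel Kcnn1 (SE 0.0993).

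Inward rectifiers had the widest range of the classes in the Derlin-1 line, from -0.76 for Kcnj5 to 0.63 for Kcnj13, while their median was 0.0454, with 9 of 14 genes higher. Against Derlin-2 controls 8 of 14 were higher, with a median of 0.0136, and values ran from -0.25 for Kcnj15 (SE 0.188) to 0.70 for Kcnj5. The Derlin-1 median was negative with normexp background correction or without Derlin-1_control replicate 2. The Derlin-2 median was negative without Derlin-2_control replicate 2 and without the last rows of the array, where Kcnj5 and Kcnj13 are printed. Kcnj10, the Kir4.1 channel through which astrocytes buffer potassium, read 13.62 and 13.52 in Derlin-1 controls against 13.54 and 13.61 in KO, a difference of 0.0057 (SE 0.0976), and differed by -0.02 in the Derlin-2 line. Of the 11 K2P genes, 5 were higher and 6 lower in Derlin-1 KO (median -0.0499) and 4 higher and 7 lower in Derlin-2 KO (median -0.0234). Both K2P medians turned positive under 3 of 20 alternatives, normexp correction among them for Derlin-2 and the removal of the last array rows for Derlin-1. Derlin-1 values ran from -0.32 for Kcnk2 (SE 0.297) to 0.23 for Kcnk10 (SE 0.109), and Derlin-2 values from -0.47 for Kcnk15 to 0.26 for Kcnk13 (SE 0.192). Kcnk1, the TWIK-1 leak channel, differed by 0.014 and -0.066 (SE 0.143).

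The 4 HCN genes were all above background. In Derlin-1 KO 1 was higher and 3 were lower (median -0.0192), and in Derlin-2 KO 4 were lower (median -0.105). The Derlin-1 median was positive under 4 of 20 alternatives. These were a 75th percentile scaling, the deposited values, and the removal of Derlin-1_control replicate 2 or of Derlin-1_KO replicate 1. The Derlin-2 median was positive without Derlin-2_control replicate 2. The SD of this class median between arrays of a group was 0.237, above both medians in size. For all 4 HCN genes, arrays overlapped between KO and control in both lines.

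Where a gene had several probes, they often differed in sign. For the 58 genes with at least 2 probes above background on all 8 arrays, all probes had one sign for 27 genes by Derlin-1 values and for 26 by Derlin-2 values, and mixed signs for 31 and 32. The median spread between the highest and the lowest probe of a gene was 0.237 and 0.172 on the log2 scale. The median gap between the 2 arrays of a group over the channel genes was 0.198 in Derlin-1 controls, 0.106 in Derlin-1 KO, 0.219 in Derlin-2 controls and 0.0887 in Derlin-2 KO.

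**Figure D5:**
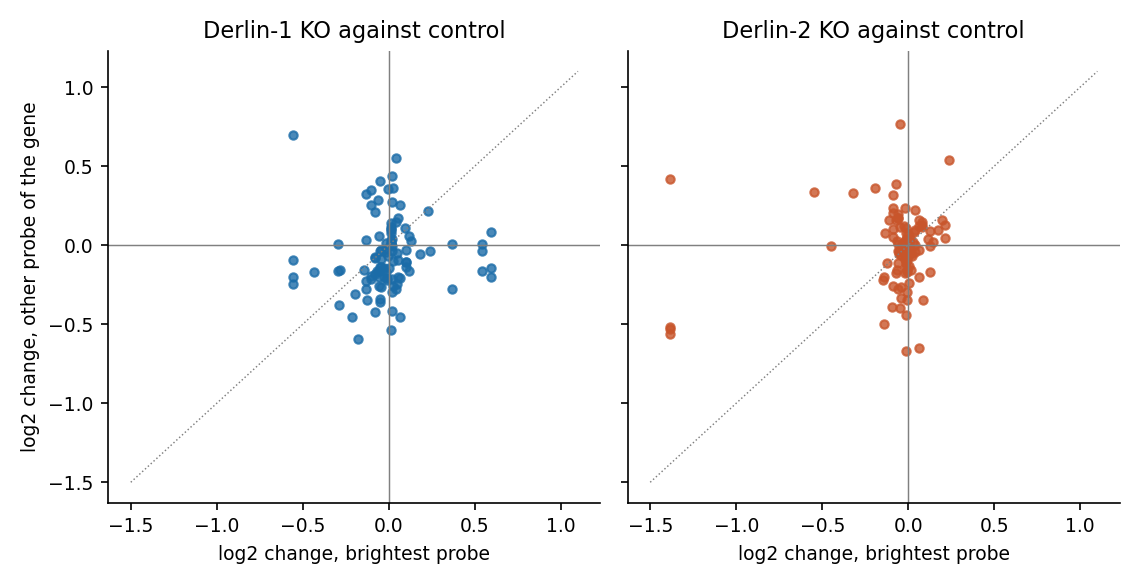
Log2 difference between KO and control of the brightest probe of a gene (x axis) against each other probe of the same gene (y axis), for the 58 channel genes with at least 2 probes above background on all 8 arrays, for Derlin-1 (left) and Derlin-2 (right). Points on the dotted line would be equal; many points lie in the quadrants of opposite sign, and signs were mixed for 31 and 32 genes.

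Proteins that bind these channels were listed as well, 56 genes in all, with scaffolds, adhesion proteins, ankyrins and calcium channel regulators among them. Of the 50 measured, 25 were higher and 24 lower in Derlin-1 KO (median 0.0025), and 29 were higher and 21 lower in Derlin-2 KO (median 0.029). None passed the threshold (0 in each line, limma). In each line, 1 of the 50 had an unadjusted p under 0.05, beside 4.23% of all genes for Derlin-1 and 4.64% for Derlin-2. In the Derlin-1 line the values ran from -0.204 for tenascin R (Tnr, SE 0.130) to 0.427 for the scaffold Dlg1 (SE 0.151, adjusted p = 0.9999 in limma). Derlin-2 values ran from -0.258 for the adhesion protein gene Amigo2 (SE 0.194) to 1.194 for tenascin C (Tnc, SE 0.390, adjusted p = 0.7893).

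Markers of the cell types in the tissue were read beside these values. All 7 granule neuron markers were above background, 2 higher and 5 lower in Derlin-1 KO and 3 higher and 4 lower in Derlin-2 KO. The 9 interneuron markers were higher in 7 cases in Derlin-1 KO (median 0.097) and lower in 8 cases in Derlin-2 KO (median -0.149). Both Derlin-1 KO arrays lay above both controls for 4 and below for 1, beside 16.2% and 17.9% of all genes. Both Derlin-2 KO arrays lay below both controls for 5, beside 14.6% of all genes. The summed level of the interneuron markers was 16.75 and 16.83 in Derlin-1 controls against 16.91 and 17.05 in KO, and 17.07 and 17.21 in Derlin-2 controls against 16.96 and 16.91 in KO. The microglia markers were lower in 8 of 8 cases in Derlin-1 KO (median -0.113), with a summed level of 16.87 and 17.03 in controls against 16.86 and 16.84 in KO. Of all genes, 11137 of 19900 were lower in Derlin-1 KO. Both Derlin-1 KO arrays lay below both controls for 4 microglia markers, beside 17.9% of all genes. In Derlin-2 KO, 4 microglia markers were higher and 4 lower (median 0.0335). Of the 8 markers of CA pyramidal neurons, 5 were higher and 3 lower in Derlin-1 KO (median 0.253), with both KO arrays above both controls for 2 and below for 1, beside 16.2% and 17.9% of all genes. In Derlin-2 KO, 1 was higher and 7 were lower (median -0.0985). Their summed level was 14.73 and 14.79 in Derlin-1 controls against 14.78 and 14.84 in KO, and 14.81 and 14.75 in Derlin-2 controls against 14.70 and 14.57 in KO. Each summed level adds signals before the log2 step, so the brightest markers weigh most. Among CA pyramidal markers this was Bok, with 14.31 and 14.22 in Derlin-1 controls against 14.32 and 14.19 in KO. Among microglia markers it was Itgam, with 16.31 and 16.56 in Derlin-1 controls against 16.36 and 16.36 in KO. The 8 astrocyte markers had 4 higher and 4 lower in each line, with medians of 0.0065 and -0.04. The 9 oligodendrocyte markers had medians of -0.028 and 0.084, and the choroid plexus and ependyma markers had a median of 0.195 in Derlin-2 KO, with 7 higher and 2 lower. None of these markers passed the threshold (0 in each line, limma). Unadjusted p-values under 0.05 in the Derlin-1 and Derlin-2 lines numbered 1 and 1 of 7 granule neuron markers and 1 and 2 of 9 interneuron markers. They numbered 1 and 0 of 8 CA pyramidal markers, and 0 and 0 for the microglia, astrocyte, oligodendrocyte and choroid plexus lists. Over all genes the shares were 4.23% and 4.64%. The part of these cell types in the channel values was not tested.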

How the data were processed

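Processed microarray files of the mouse dentate gyrus were used, 2 arrays in each of 4 groups taken from the sample titles. Per the file headers, the authors scanned with Agilent Feature Extraction 10.7.1.1, and the deposited intensity of a spot is its processed signal after background subtraction and detrending. Flags for other properties, such as outlier spots, were deposited with it. The authors' deposited tables hold log2 values per array, together with fold changes of their own comparison, which were not used. The study's methods name quantile normalization in GeneSpring. Differences between KO and control in the deposited log2 values, however, equalled those of the plain log2 scanner signal plus a constant, within 0.01 for 100% of 56605 probes in either line, so these values carry a shift per array only. They served as an alternative.

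Control spots (3671 per array) and spots with an outlier flag were left out. The signal was floored at 1, below its lowest value of 2.82, put on the log2 scale and made equal in distribution across the 8 arrays by quantile normalization, and spots of a probe were averaged. Probes well above background on both arrays of at least 1 group were kept (40001 of 56605), and a gene is represented by its brightest probe. Group means were fitted with limma 3.58.1 in R 4.3.3 (4 residual and 2.08 prior degrees of freedom). Two-sided tests were used, with Benjamini-Hochberg adjustment over all probes tested and a threshold of 0.05. An exact test of 2 arrays against 2 cannot go below p = 0.333, and the number of arrays limits the precision. The fit was tested on simulated data.

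Gene symbols follow the annotation of the array. The channel set, its classes and all lists were chosen with earlier results of these data known. Named with values were, per line, up to 5 genes in each direction with the largest difference among genes above background on all 4 arrays and with KO and control not overlapping, up to 3 in each direction for the difference of the lines, 16 genes of known roles, and class extremes. A few genes that this rule names are not reported here. The normexp alternative used median spot signals, as the files used here have no mean signal. Genome coordinates of probes are not given, since the design rests on an older assembly.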

Additional observations from a re-analysis of the deposited data

How the results depend on the processing

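No channel gene was called in either line or for the difference under any alternative run (0 throughout), that is with scaling to the 75th percentile, normexp background correction, no filter, probes above background on all 8 arrays only, a signal floor of 16, the 4 arrays of a line alone, an intensity trend with robust moderation, the mean over the probes of a gene, no probes from the last eighth of the array rows, the deposited log2 values, outlier spots kept, and each array left out in turn. The difference between the lines was not computed from the deposited values or from 1 line. With the replicate number as a block, 0 channel genes were called, and 10 and 7 had an unadjusted p under 0.05 in the Derlin-1 and Derlin-2 lines. Beside 11 and 5 channel genes with an unadjusted p under 0.05 in the Derlin-1 and Derlin-2 lines, the mean over the probes of a gene gave 7 and 3, and for Derlin-2 the count was 10 with no filter, 3 with an intensity trend and 3 with the deposited values. The share over all genes was not computed under these alternatives, so the shifts in count cannot be read as particular to channel genes. The deviations of same-numbered arrays correlated at 0.268 and -0.0981, which, with 2 pairs a line, does not settle whether the numbers pair the samples. The median difference over channel genes lay between -0.0633 and 0.0162 in the Derlin-1 line and between -0.0155 and 0.0299 in the Derlin-2 line with each array left out. With scaling to the 75th percentile it was -0.00334 and 0.0204, where the medians over all genes were 0.0131 and 0.0214. Of 1558 values of named genes under the alternatives, 1484 kept their sign and 74 did not, and the cause was not tested. With each array scaled to its 75th percentile, the log2 change turned in the Derlin-1 line Kcnj10 to -0.0125, Kcnk1 to -0.00327, Scn1a to -0.0034, Cacna1a to -0.00478 and Scn2b to 0.00692, and in the Derlin-2 line Kcnma1 to 0.0457, Kcnj10 to 0.0304, Scn8a to 0.00928, Cacna1a to 0.0237, Cacna2d1 to 0.0202 and Scn3b to 0.0268. With normexp background correction, the log2 change turned in the Derlin-1 line Kcna4 to -0.00416, Kcnk1 to -0.0124 and Cacna1a to -0.00964, and in the Derlin-2 line Kcnma1 to 0.0348. With the mean over the probes of a gene, the log2 change turned in the Derlin-1 line Kcnq3 to 0.0997 and Kcnma1 to -0.033, and in the Derlin-2 line Kcnc1 to 0.0965, Scn1a to -0.0848, Scn8a to 0.145, Cacna1h to 0.074 and Cacna2d1 to 0.0189. Without the probes in the last eighth of the array rows, the log2 change turned in the Derlin-1 line Scn1a to -0.212, and in the Derlin-2 line Scn1a to -0.131. With the deposited log2 values, the log2 change turned in the Derlin-1 line Kcnj10 to -0.0233, Kcnk1 to -0.0141, Scn1a to -0.0142 and Cacna1a to -0.0156, and in the Derlin-2 line Kcnma1 to 0.0475, Kcnj10 to 0.0322, Scn8a to 0.0111, Cacna1a to 0.0255, Cacna2d1 to 0.0219 and Scn3b to 0.0286. With each array left out in turn, the changes in the Derlin-1 line that turned in sign ran from -0.135 to 0.0986 for Kcnc1, from -0.333 to 0.088 for Kcnd2, from -0.178 to 0.0195 for Cacna2d1, from -0.684 to 0.0408 for Kcnk2, from -0.176 to 0.0757 for Scn2b, from -0.121 to 0.0683 for Cacnb4, from -0.0362 to 0.0631 for Kcnma1, from -0.0444 to 0.0559 for Kcnj10, from -0.13 to 0.159 for Kcnk1, from -0.0417 to 0.074 for Scn1a, from -0.186 to 0.074 for Cacna1h, from -0.0386 to 0.107 for Kcna4 and from -0.0251 to 0.063 for Cacna1a. With each array left out in turn, the changes in the Derlin-2 line that turned in sign ran from -0.137 to 0.14 for Scn4b, from -0.183 to 0.063 for Kcnd2, from -0.0478 to 0.0283 for Kcnma1, from -0.0576 to 0.0169 for Kcnj10, from -0.218 to 0.194 for Scn8a, from -0.084 to 0.0445 for Cacna2d1, from -0.41 to 0.0243 for Scn2b, from -0.0419 to 0.251 for Kcna4, from -0.104 to 0.0447 for Kcnq3, from -0.179 to 0.0481 for Kcnk1, from -0.0411 to 0.0477 for Scn1a, from -0.0934 to 0.0669 for Cacna1a, from -0.199 to 0.0536 for Cacna1h, from -0.499 to 0.105 for Kcnn4, from -0.243 to 0.0859 for Cacng5 and from -0.119 to 0.0246 for Cacnb2.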
